A study of Brassica napus with 6 samples.

Results

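Seeds of oilseed rape (Brassica napus) taken 40 days after flowering from droughted plants were set against seeds taken 50 days after flowering from well-watered control plants. These are 2 of the 6 libraries of the series, chosen by their labels alone, with 1 library each. This species is a hybrid-derived tetraploid whose genes lie on an A and a C subgenome. The other 4 libraries are control seeds of days 30 and 40 and drought seeds of days 30 and 50. The drought libraries came from plants stressed from the start of flowering onward, grown like the controls under a rainproof shelter. The labels mention 6 lines without tying any line to a library, so line, plant, age and drought cannot be told apart between the 2 libraries. The question was which genes bring the younger droughted seed to the levels of the older watered seed, and which genes still set the libraries apart.

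A maturing Brassica seed passes from embryo growth to the laying down of storage proteins and oil, and then to drying and dormancy. Each phase switches large sets of genes on and off, so transcripts follow the age of a seed. Water shortage during seed filling is known in many crops to shorten that phase. The libraries hold RNA of whole seeds as labelled, in which fewer cells of a type and less RNA per cell cannot be told apart. The files give IDs without gene names, and a search of the RefSeq genes of the Da-Ae assembly found 0 of those IDs. Genes are therefore described by their time course, level and length, and the few named ones only by ID.

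The drought library of day 40 held 10314859 counted reads and the control library of day 50 held 14918127, while the other 4 ran from 12209126 to 16177156. Levels are CPM (read counts relative to library size) with TMM factors (a trimmed mean over genes that evens out libraries of unlike makeup). Ratios are given as log2 of drought day 40 over control day 50 with a prior of 0.5 reads. The drought library of day 40 stood apart from the other 5 by gene length. Across the 27499 genes that averaged 5 CPM or more over the 6 libraries, its deviation from the 6-library mean correlated with log2 gene length at -0.402, against -0.001 to 0.125 in the others. Results that length touches are given with and without this trend, and its part in them was not otherwise tested. With no replicate of any library, ratios describe these libraries and carry counting error only.

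Most genes had like levels in the 2 libraries. Of 26624 genes that averaged 5 CPM or more over the pair, 23481 (88.2%) lay within 2-fold of each other, and 17578 within 1.5-fold. The remaining 3143 genes, 11.8%, were at least 2-fold apart. Of these, 1701 (6.39%) were higher in drought day 40 and 1442 (5.42%) were higher in control day 50. At 4-fold or more there were 232 higher and 88 lower genes, and at 8-fold or more 33 and 15. Removal of the length trend left 135 and 86 at 4-fold, and 21 and 15 at 8-fold. The median log2 ratio was -0.01 and its standard deviation across genes 0.69. Many genes sat near the threshold, with 900 genes at a log2 size from 0.9 to 1 and 765 from 1 to 1.1. The median gene had 111 reads in drought day 40 and 186 in control day 50. A 95% exact counting interval of the ratio lay wholly above 2 for 803 genes and wholly below 0.5 for 429. The balance of higher and lower genes was not firm. Removing the length trend left 1106 genes higher and 1184 lower, and the higher share of all that differed became 48.3% where it had been 54.1%. Scaling by library totals alone put the median of all genes at -0.21 and that share at 29.0%.

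By overall distance the droughted seed of day 40 was about as far from the older control as from the control of its own age. It differed at least 2-fold from control day 40 for 2700 of 26606 genes (10.1%). Control days 40 and 50 themselves differed for 3072 of 26677 genes (11.5%). Removal of the length trend brought the distance of drought day 40 to control day 50 down to 2290 genes and that to control day 40 down to 2173, while the distance between the control libraries was 3041. The log2 levels of drought day 40 correlated at 0.888 with control day 50, 0.880 with control day 40 and 0.773 with drought day 50 across the 27499 genes. Without the length trend these values were 0.911, 0.897 and 0.793. The pairs share libraries, so these values are set side by side and their order was not tested.

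**Figure D1:**
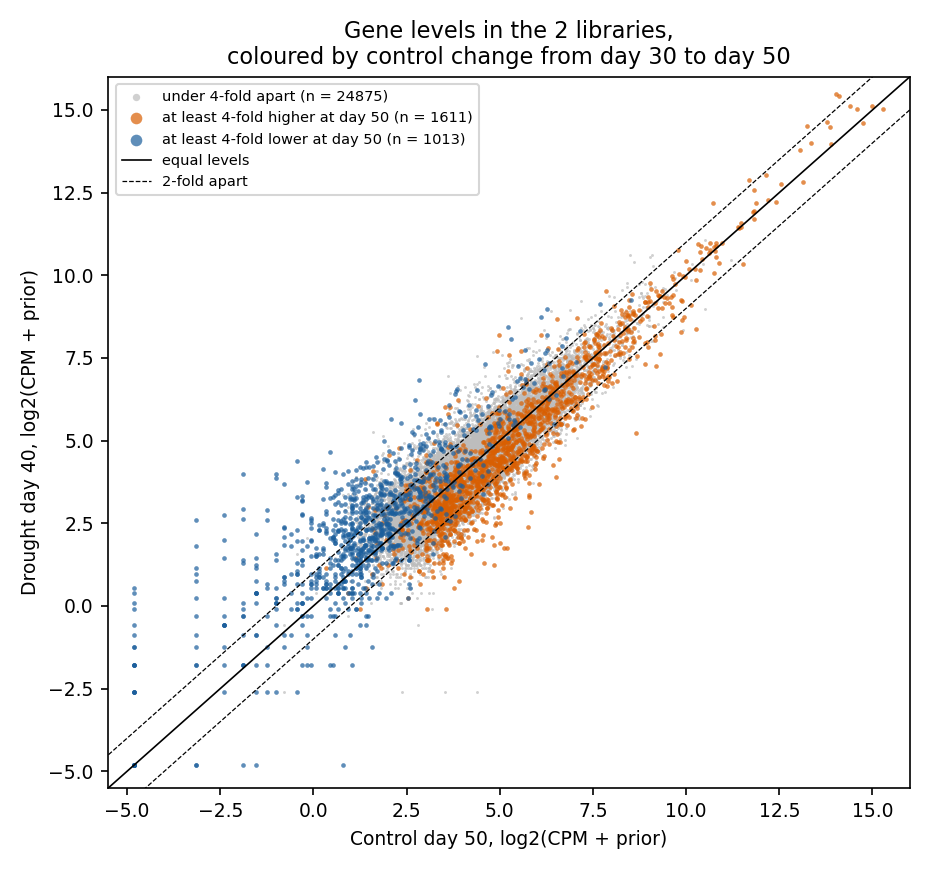
Level of each of 27499 genes in control day 50 (x axis) and drought day 40 (y axis), both as log2 of CPM plus the prior, coloured by whether the gene was at least 4-fold higher or lower in control day 50 than in control day 30. Genes that rise in control seeds lie close to the line of equal levels, mostly just under it, and genes that fall lie mostly above it.

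Drought day 40 was closer to control day 50 than control day 40 was in the genes that change with seed age. Age-flat genes, within 2-fold between control days 30 and 50, were less often set apart than any class that changes, with 7.83% of 20835 at least 2-fold apart between drought day 40 and control day 50 (2.76% between control days 40 and 50). In the class that rises over 16-fold from control day 30 to control day 50 (604 genes), drought day 40 had a median log2 ratio of -0.48 to control day 50, where control day 40 stood at -2.10. The 1007 genes that were 4 to 16-fold higher had medians of -0.38 and -1.17. Among the 2076 genes 2 to 4-fold higher the medians were -0.33 and -0.57. The genes that fall with age were further from arrival. The 250 genes over 16-fold lower at control day 50 had a median of 1.43 in drought day 40 and 2.85 in control day 40. For the 763 genes 4 to 16-fold lower the medians were 0.72 and 1.48. The 20835 age-flat genes had medians of -0.02 and -0.01. These genes are the bulk of those that the scaling centres, so a median near 0 is set by it, and library totals alone gave -0.30 in drought day 40.

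**Figure D2:**
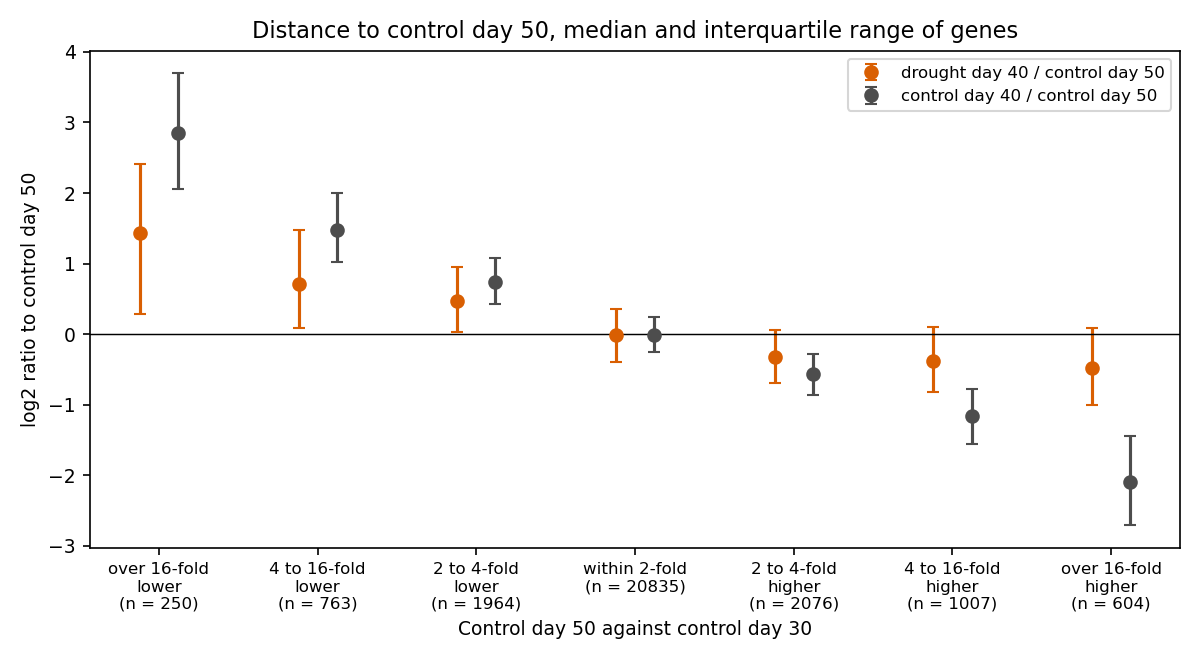
Median log2 ratio to control day 50 with interquartile range across genes, for drought day 40 and control day 40, by class of change from control day 30 to day 50. Drought day 40 lies closer to 0 than control day 40 in all 6 classes of changing genes, for example -0.48 against -2.10 in the class over 16-fold higher.

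The classes and the ratio share the control library of day 50, and a chance high or low value there moves both. Classes drawn from libraries outside the ratio gave the same directions, but smaller medians in the milder classes. By the change from control day 30 to 40, the 276 genes over 16-fold higher had a median log2 ratio of -0.48. The 58 over 16-fold lower had one of 0.99, with an interval over genes of 0 to 1.68. The 619 genes 4 to 16-fold higher had -0.10 and the 1586 genes 2 to 4-fold higher -0.11, against -0.38 and -0.33 in the main classes. Genes 4 to 16-fold and 2 to 4-fold lower had 0.63 and 0.13, against 0.72 and 0.48. By the change from drought day 30 to 50, the 715 genes over 16-fold higher had a median of -0.37 and the 512 over 16-fold lower one of 0.62.

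Taking the 2624 genes at least 4-fold apart between control days 30 and 50, drought day 40 was nearer to control day 50 than control day 40 was for 2115, or 80.6%. The share was 84.3% of the 1611 rising genes and 74.7% of the 1013 falling genes. Among age-flat genes it was 37.0%, and 43.1% with the length trend removed. The rising genes of drought day 40 had covered a median of 89.9% of the log2 change from control day 30 to day 50, with an interquartile range of 75.6% to 102%. Control day 40 had covered 61.5% (48.0% to 72.9%). The falling genes had covered 74.2% (49.7% to 95.9%) in drought day 40 and 45.2% (31.6% to 59.9%) in control day 40. Without the length trend the drought medians were 87.2% for rising and 77.3% for falling genes. Drought day 40 lay past the level of control day 50 for 477 rising genes (29.6%), and by 2-fold or more for 65 of them. Without the length trend these were 335 genes (20.8%) and 37. It lay behind control day 40 for 180 rising and 205 falling genes.

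The genes that make the 2 libraries alike can be named as a set. In 1936 of the 2624 genes control day 40 was still at least 2-fold short of control day 50. In 1191 of those, 61.5%, drought day 40 was within 2-fold of control day 50, where 88.2% of all 26624 genes of the pair were. The 1936 were picked by control day 40 being short, so a chance value in that library adds to the genes counted as in range. Of the 1132 rising genes 816 (72.1%) had reached that range, 304 (26.9%) were also short by 2-fold and 12 were beyond by 2-fold. Of the 804 falling genes 375 (46.6%) had reached it, 401 (49.9%) were also short and 28 were beyond. Among the falling genes in range, 28 had under 10 reads in both libraries, where counts are too few to tell levels apart. The rising genes in range had median levels of 2.13, 9.25 and 31.2 CPM in control days 30, 40 and 50, and of 2.38, 24.7 and 47.9 CPM in the drought libraries. The rising genes still short had 1.42, 4.89 and 23.7 CPM in control and 1.48, 7.81 and 29.9 CPM in drought. The droughted seed of day 50 thus had the highest median of the 6 libraries in both sets. Length went with this split in opposite ways. Rising genes in range had a median length of 1281 bases and those still short 1783.5, whereas falling genes in range had 1666 and those still short 1083. Without the length trend 1207 genes met the same definition in place of 1191.

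Single genes show how sharp the approach could be. They are those with the widest gap between the day 40 libraries, so the gap itself is a description. Reads of closely similar copies on the A and C subgenomes may be credited to either copy, which limits every single-gene value. BnaC03g23240D, 555 bases long, had no read in control day 30, 0.272 CPM in control day 40 and 27.2 CPM in control day 50. In drought it stood at 0.0954 CPM at day 30, 39.7 CPM at day 40 and 202 CPM at day 50. Drought day 40 was thus 1.46 times control day 50, with a counting interval of 1.246 to 1.70, and 146 times control day 40 (56.4 to 539). The 4 reads of control day 40 account for the width of the last interval. Cole_newGene_4692, from its name taken here as a new gene model, had 0.0647, 2.18 and 214 CPM in control and 0.381, 141 and 2677 CPM in drought. Its level in drought day 40 was 65.0 times that of control day 40 (45.7 to 95.5), and control day 50 was 1.52 times drought day 40 (1.41 to 1.63). Both genes went on rising in drought to levels far over control day 50. Without the length trend their log2 ratios of drought day 40 over control day 50 were -0.06 and -0.95, against 0.54 and -0.60 before.

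The falling genes of this kind were already without reads. Cole_newGene_1858 had 26.4 and 3.88 CPM in control days 30 and 40 and 17.4 CPM in drought day 30, and 0 reads in control day 50 and in drought days 40 and 50. Against a floor of 3 reads per library it was at least 10.1-fold lower in drought day 40 than in control day 40. BnaC02g36890D had 23.1 and 2.18 CPM in control days 30 and 40 and 8.92 CPM in drought day 30, again with 0 reads in the same 3 later libraries. By the same floor it was 5.66-fold lower in drought day 40 than in control day 40, with an interval that began at 4.35-fold. No fold between drought day 40 and control day 50 is given for these genes, since both are at 0.

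The genes that still set the libraries apart were mostly of 2 kinds, genes of seed age that had not reached the day 50 level and genes flat between control days 30 and 50. Of the 3143 genes, 1352 (43.0%) had changed at least 2-fold between control days 30 and 50 and were short of the day 50 level in drought day 40. A further 1611 (51.3%) were age-flat, and 180 (5.73%) had moved past control day 50. Age-flat genes made up 77.2% of all 26624 genes and 7.83% of them were set apart, against 25.3% of the 6062 genes that changed at least 2-fold with age. The 1701 genes higher in drought day 40 comprised 666 falling genes that were short, 152 rising genes that were past, and 883 age-flat genes. The 1442 lower genes comprised 686 rising genes that were short, 28 falling genes that were past, and 728 age-flat genes. These groups use control day 50 on both sides, so a chance value there adds to the short genes. In the 512 genes over 16-fold lower by the drought libraries alone, 194 (37.9%) were 2-fold higher in drought day 40 than in control day 50 and 34 (6.64%) lower, where all 27499 genes gave 6.7% and 5.55%. In the 715 genes over 16-fold higher by those libraries 45 (6.29%) were higher and 167 (23.4%) lower.

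The short genes mostly stood with the control of the same age. Of the 1352, control day 40 lay within 2-fold of drought day 40 and not of control day 50 for 745, and the reverse held for 135. The age-flat genes differed in this. Of the 1611, control day 40 lay within 2-fold of control day 50 and not of drought day 40 for 510, and with drought day 40 only for 217. For 871 it lay within 2-fold of both libraries. This contrast follows largely from how the classes are defined. Control day 40 was at least 2-fold from control day 50 for 2.76% of all 20835 age-flat genes. In the classes that change with age that share ran from 18.1% to 90.4%. Age-flat genes were also split by length, with a median of 903 bases for the 883 higher genes and 2764.5 bases for the 728 lower ones, where all 26624 genes had 1648. After removal of the length trend 981 (72.6%) of the short genes were still at least 2-fold apart in the same direction, and 689 (42.8%) of the age-flat genes. Among the genes that stayed apart, 55.3% were then short and 38.8% age-flat.

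**Figure D3:**
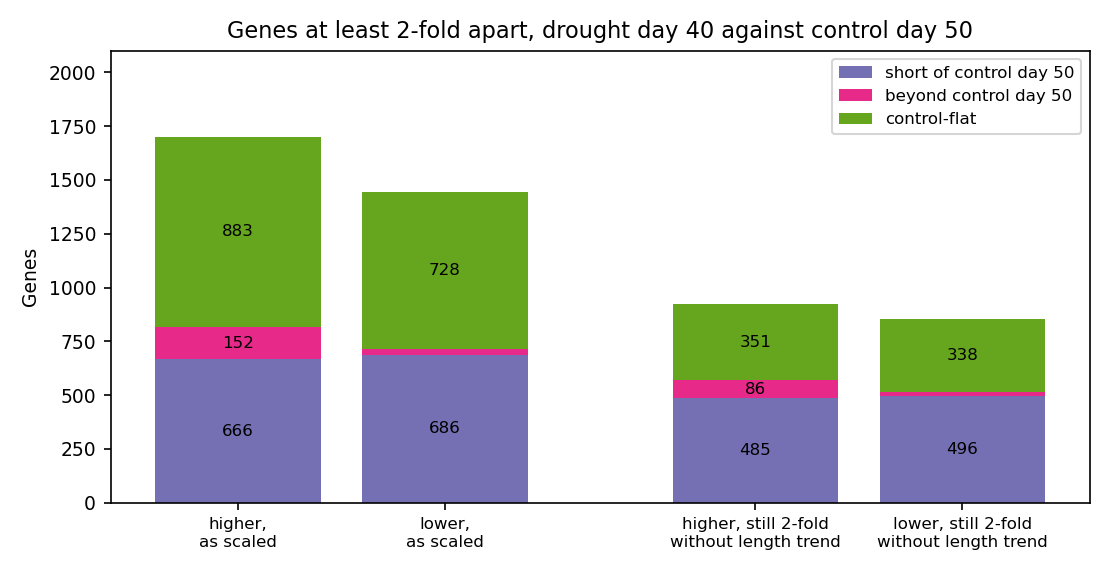
Number of genes at least 2-fold higher or lower in drought day 40 than in control day 50, split into genes short of the day 50 level, genes past it and genes flat between control days 30 and 50, as scaled and after removal of the length trend. The age-flat part shrinks from 883 to 351 higher and from 728 to 338 lower genes, the short part from 666 to 485 and from 686 to 496.

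Drought day 50 stood with control day 50 for more of these genes than with drought day 40, and it was also nearer to control day 50 over all genes. It was at least 2-fold from control day 50 for 19.6% of 26670 genes, and from drought day 40 for 27.1% of 26840. The set-apart genes were also picked by drought day 40 being far from control day 50. For 1354 of the 3143 genes drought day 50 lay within 2-fold of control day 50 and not of drought day 40. For 511 it lay with drought day 40 only, for 815 with both and for 463 with neither. Among all 27499 genes drought day 40 was at least 2-fold above each of the 3 control libraries for 201 (0.731%) and at least 2-fold below each for 289 (1.05%). The higher ones had a median length of 677 bases and the lower ones 2563. Without the length trend the counts were 76 and 226, with median lengths of 1349.5 and 1500. In drought day 50, 1494 genes lay 2-fold above and 2353 below all the controls, which have no library older than day 50.

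Among genes of at least 20 CPM over the pair, the 2 highest ratios belonged to a gene that falls with age and to an age-flat one. Genes of lower level held larger ratios, and 10 of the 26624 genes were at least 16-fold higher. BnaC07g18750D, of 1032 bases, fell with age in control seeds from 1909 CPM through 106 to 7.12 CPM. In drought it went from 928 CPM through 114 to 1.57 CPM. It was 15.9 times as high in drought day 40 as in control day 50 (12.9 to 19.99), and 1.07 times control day 40 (0.985 to 1.16). The day 40 libraries were therefore alike for this gene within counting error. BnaA08g00950D, of 465 bases, was age-flat between control days 30 and 50 and highest at day 40 in both treatments. It had 2.004, 22.0 and 3.02 CPM in control and 1.29, 38.3 and 9.21 CPM in drought. Drought day 40 was 12.7 times control day 50 (9.06 to 18.2) and 1.74 times control day 40 (1.48 to 2.04).

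The 2 lowest ratios at that level belonged to late risers. Cole_newGene_4199 had 0.194, 1.496 and 36.8 CPM in control and 0.668, 3.33 and 65.6 CPM in drought, so that control day 50 was 11.1 times drought day 40 (7.46 to 17.1). BnaA02g17530D had no read in control day 30, 5.30 CPM in control day 40 and 406 CPM in control day 50. In drought it had 0.191, 37.6 and 1385 CPM. Control day 50 was 10.8 times drought day 40 (9.60 to 12.2), although drought day 40 was 7.10 times control day 40 (5.51 to 9.23). This gene was thus ahead of its own age and still short of day 50. Without the length trend the log2 ratios of the 4 genes were 3.71, 2.96, -3.37 and -3.57, against 3.99, 3.65, -3.45 and -3.43 before.

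**Figure D4:**
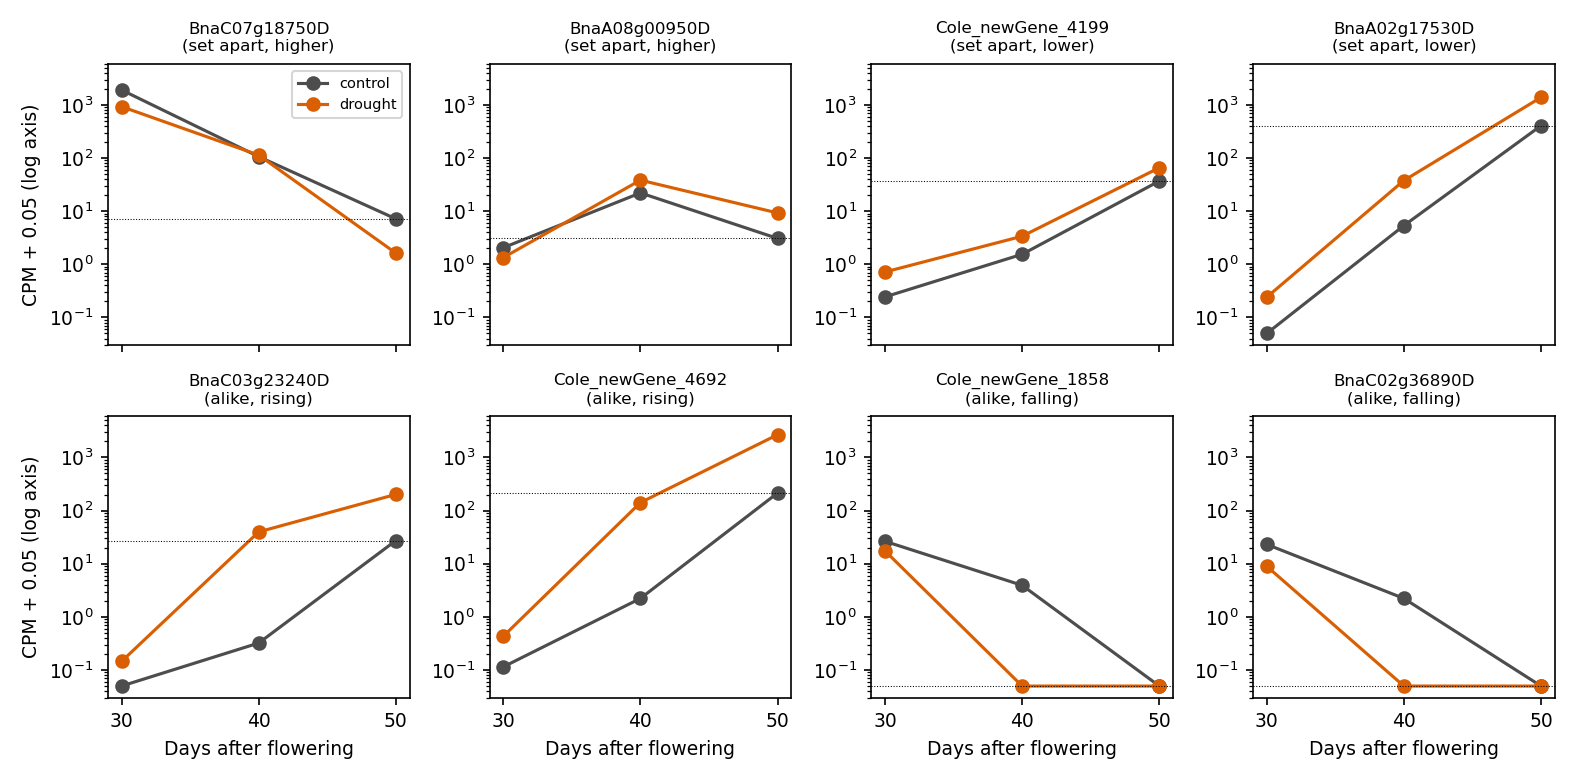
CPM plus 0.05 on a log axis at 30, 40 and 50 days after flowering in control and drought libraries for the 8 named genes, with a dotted line at the level of control day 50. In the upper row the drought point of day 40 is far from the line, in the lower row it is on or near it while the control point of day 40 is not.

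The most abundant transcripts were largely the same genes in the 2 libraries, and this was not particular to the pair. Control day 40 shared 10 of its 10 and 75 of its 100 most abundant genes with drought day 40. The 10 most abundant genes of drought day 40 held 24.6% of its counts and those of control day 50 held 19.4%, and 9 were common to the lists. Of the 100 most abundant, 77 were common, or 77% of each list, and 63 of the 77 rise at least 4-fold in control seeds from day 30 to day 50. These 77 had a median log2 ratio of 0.12 (-0.01 without the length trend), with 5 at least 2-fold higher in drought day 40 and 1 lower. The 23 that only drought day 40 placed in its top 100 had a median ratio of 0.99, and 11 of those genes were age-flat. Of the 23 that only control day 50 placed there 18 rise at least 4-fold, and the median was -0.81. These medians follow from how the lists were cut. Of all 27499 genes 1611 rise at least 4-fold, and 77.2% of the 26624 genes of the pair are age-flat. The rising class uses control day 50, so a place in the top 100 of that library favours genes of that class. BnaA10g02240D, with the highest mean over the pair, had 1827, 14391 and 39399.9 CPM in control and 1196, 33744 and 20497 CPM in drought. Control day 50 was 1.17 times drought day 40 (1.16 to 1.17), and the gene ranked as number 1 and number 5 in the 2 libraries.

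Rising genes of at least 200 CPM had come closer to control day 50 than the less abundant ones. Among genes at least 4-fold higher at control day 50 than at day 30, the median log2 ratio was -0.62 for 519 genes at a pair mean of 5 to 10 CPM and -0.49 for 762 genes at 10 to 50 CPM. It was -0.21 for 330 genes at 50 to 200 CPM, 0.03 for 135 genes at 200 to 1000 CPM and 0.11 for 52 genes over 1000 CPM. The pair mean holds the libraries compared, so levels were also taken from drought day 50, which is in neither the ratio nor the class. By that level the medians were -0.44 for 178 genes under 10 CPM, -0.57 at 10 to 50 CPM, -0.32 at 50 to 200 CPM, 0.03 at 200 to 1000 CPM and -0.004 over 1000 CPM, so the order did not extend to the least abundant genes. By the pair mean with the length trend removed they ran from -0.75 at 5 to 10 CPM to -0.02 over 1000 CPM. By the level in drought day 50 without that trend they were -0.59 under 10 CPM and -0.68 at 10 to 50 CPM. They were -0.41 at 50 to 200 CPM, -0.21 at 200 to 1000 CPM and -0.32 over 1000 CPM. The share of rising genes still at least 2-fold lower in drought day 40 went from 32.0% at 5 to 10 CPM to 1.92% over 1000 CPM by the pair mean. By the level in drought day 50 it was 18.0% under 10 CPM, 27.8% at 10 to 50, 19.0% at 50 to 200, 8.54% at 200 to 1000 and 11.5% over 1000 CPM, with no steady order. Drought day 50 shares the treatment of drought day 40, so this level is not free of drought differences. In these ranges the median log2 ratio of drought day 50 to control day 50 was -1.13 under 10 CPM. It was 0.92 at 200 to 1000 CPM and 0.20 over 1000 CPM. A falling gene passes the pair mean limit of 5 CPM more readily when drought day 40 is high. With that limit, falling genes had medians of 1.03, 1.23 and 1.33 at pair means of 5 to 10, 10 to 50 and 50 to 200 CPM. By their level in drought day 30, which is outside the ratio and the class, these genes had medians of 1.20 under 10 CPM, 0.79 at 10 to 50, 0.61 at 50 to 200 and 1.03 at 200 to 1000 CPM, and so showed no order by level. Over all genes the share at least 2-fold apart lay between 10.4% and 16.2% in every level range.

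The ratio followed gene length over all genes and in the classes that were split by length. Across 26624 genes the log2 ratio correlated with log2 gene length at -0.466. In the 354 genes no longer than 400 bases the median was 0.78, in the 3018 genes between 700 and 1000 bases it was 0.36, and in the 6043 genes over 2500 bases it was -0.40. Of the shortest genes 39.3% were at least 2-fold higher and 1.13% lower, and of the longest 1.21% were higher and 11.2% lower. The trend was also present against control day 40, with medians of 0.79 and -0.26 in the shortest and longest genes. Between control days 40 and 50 these medians were 0.06 and -0.12, and between drought and control day 50 they were 0.13 and 0.01. Length and class of age change were both seen in the ratio. Among age-flat genes the median went from 0.76 in the 222 shortest to -0.38 in the 5014 longest. Genes that rise at least 4-fold went from 0.15 in 45 genes to -0.90 in 240. Genes that fall at least 4-fold went from 2.40 in 24 genes to 0.61 in 48. In the rising and falling genes the median did not drop at every step of length. In each length range the falling genes had the highest median and the rising genes the lowest. These ranges hold only genes of at least 5 CPM over the pair. A falling gene, low in control day 50, passes that limit more readily when drought day 40 is high. Of the 250 genes over 16-fold lower at control day 50, 43 passed, with a median of 2.07 where all 250 had 1.43. The falling medians by length thus come from genes that this limit favours, and the classes share control day 50 with the ratio.

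**Figure D5:**
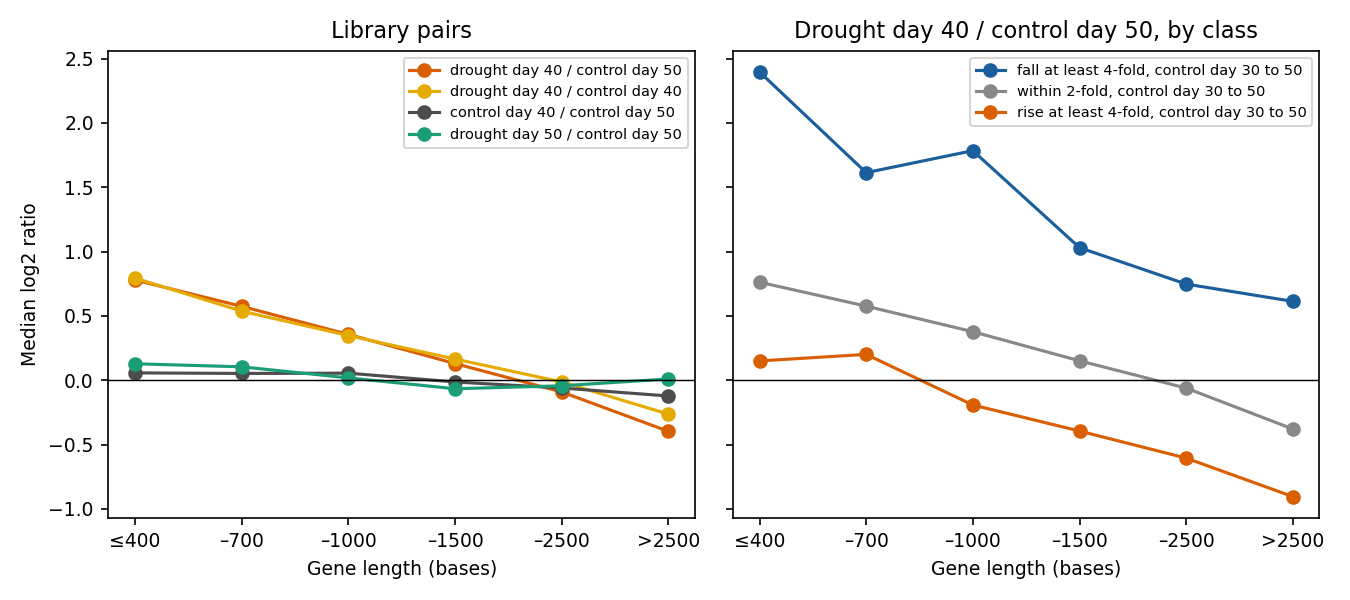
Median log2 ratio by range of gene length, on the left for 4 pairs of libraries over all genes and on the right for drought day 40 over control day 50 by class of control change. Both pairs with drought day 40 slope down from 0.78 and 0.79 in the shortest genes to -0.40 and -0.26 in the longest, while the other pairs stay between -0.12 and 0.13.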

How the data were processed

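Seed RNA was sequenced as paired reads of 100 bases, per the labels' protocols. The authors deposited raw counts per gene for 72611 genes with a gene length, and 1 file per library read here as FPKM. Their headers give no unit, and the submitters' processing notes name Cufflinks without a role. The sources used here name no aligner, counting tool, genome build or strand setting. The FPKM of the authors were used only as an alternative. Library sizes were taken over the 46483 genes kept by filterByExpr and scaled by TMM with edgeR 4.0.16 in R 4.3.3. Ratios, classes and exact (Clopper-Pearson) 95% counting intervals were computed in Python 3.11.15 with a prior of 0.5 reads at mean depth. The length trend was removed per library by lowess (span 0.3) on log2 gene length. With 1 library per group no test was made and no p-value is given. Named genes were those of at least 20 CPM over the pair with the 2 highest and 2 lowest ratios. To these were added, among genes whose highest level was at least 20 CPM, the 2 rising and 2 falling genes drawn most from control day 40 to control day 50, and the gene of highest pair mean. The code was tested on simulated data. Genes, classes and thresholds were chosen with earlier results of these data known. Functional gene lists could not be used because IDs carry no names, and no sequence is shown.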

Additional observations from a re-analysis of the deposited data

How the results depend on the processing

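No paired analysis was possible because each group has 1 library. For the same reason no library could be left out, counting intervals leave out differences between plants, and genes of few reads cannot be placed. In 48 of 98 recomputed values the result kept its direction and stayed within 1.5 times (counts) or the 95% interval of the main value over genes, which are not independent replicates. All values with relative log expression factors or a prior of 2 reads did so. The cause of the other shifts was not tested, beyond the change of gene set or scale that each choice makes.

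With library totals alone 907 genes were higher and 2220 lower (29.0% higher, a reversed balance), medians of the classes over 16-fold higher, over 16-fold lower and within 2-fold were -0.72, 0.91 and -0.30, 82.4% of the 4-fold genes were nearer, and the length correlation was -0.476. With upper quartile factors 56.9% were higher and the flat median was -0.0017. From 1 CPM upward there were 3877 higher and 3636 lower genes (51.6% higher), a rising median of -0.58, 71.5% nearer, 2119 drawn genes and a length correlation of -0.359. From 20 CPM upward these were 662, 460, 59.0%, -0.25, 84.1%, 524 and -0.526, with a flat median of 0.010. With no filter they were 9293, 10439, 47.1% (reversed), -0.78, 55.9%, 2714 and -0.188, with a falling median of 2.20. That falling median is a tied value with an interval of 2.20 to 2.20. It is the ratio that a lone read in drought day 40 against no read gives with the prior, and no measured fold. With the mean taken over the other set of libraries the falling median was 2.15 and the flat one 0.00036. With the length trend removed 1106 genes were higher, 48.3% of those apart (reversed), the rising median was -0.66 and 83.0% were nearer. With the FPKM of the authors 49.2% were higher (reversed), the rising, falling and flat medians were -0.57, 0.91 and -0.071, and the length correlation was -0.321. At 4-fold 232 genes were higher and 88 lower (72.5% higher). With classes from control day 30 to 40 the falling median was 0.99, with an interval of 0 to 1.68. With classes from drought day 30 to 50 the rising and falling medians were -0.37 and 0.62. The directions of the rising and falling medians and of the length correlation thus held in every setting run, the tied falling median aside. The level from drought day 50, and the groups of set-apart genes without the length trend, were chosen after seeing the data.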

Other observations

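Genes of both subgenomes, read from the letter in the ID, were set apart and drawn together in like shares. In drought day 40, 6.65% of 12593 A genes stood 2-fold or more above control day 50 and 5.14% below it, against 6.24% and 5.28% of 13193 C genes. Of the A genes for which control day 40 was 2-fold short of control day 50, 60.8% were within 2-fold in drought day 40, and of such C genes 63.7%. By chromosome named in the ID, the share of genes at least 2-fold apart ran from 9.03% on A10 to 13.5% on C02. The added gene models differed from these values. Of 792 such models 4.80% were higher and 11.6% lower in drought day 40, with a median log2 ratio of -0.15, and 13.0% were lower with the length trend removed. Their median length was 1436 bases, against 1630 for A genes and 1683 for C genes. None of these differences was tested.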
